A study of Homo sapiens with 6 samples.

Results

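The 10 genes described here make, export, cut, load and use small RNAs in human cells: DROSHA, DGCR8, XPO5, DICER1, TARBP2, AGO1, AGO2, AGO3, AGO4 and TNRC6A. They were chosen by gene name as the machinery behind microRNAs (miRNAs) and small interfering RNAs (siRNAs), and each name matched 1 record of the 33097 in the expression table. All 10 belonged to the 14582 genes that reached 1 FPKM (fragments scaled to transcript length and library size) in at least 1 library and were tested. AGO3 reached that level in KP3 libraries alone. The data are 6 RNA-seq libraries from CFPAC and KP3, both established lines of human pancreatic cancer. Per line there was 1 library after control siRNA, 1 after an siRNA against the kinase NEK6 and 1 after an siRNA against its relative NEK7. The titles of the control libraries name a control siRNA, although their tags read WT, and they were taken as control siRNA, so every library came from siRNA-treated cells. The labels do not give the siRNA sequences, their dose or the time after transfection.

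In animals, primary miRNA transcripts are cut in the nucleus by the Microprocessor, which pairs the nuclease DROSHA with the RNA-binding protein DGCR8, and the hairpins leave through Exportin-5 (XPO5). In the cytoplasm DICER1, helped by TARBP2, cuts them to short duplexes, and 1 strand is loaded into an Argonaute protein (AGO1 to AGO4). A synthetic siRNA enters at the duplex stage, without DROSHA or XPO5. Argonaute recruits TNRC6A (GW182), which brings in deadenylases, while AGO2 can also cut a fully matched target itself.

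No condition had a replicate library. The tests therefore used all 6 libraries in 1 edgeR model with line and siRNA as factors. For the lines a p-value measures the difference against its variation over the 3 siRNA conditions, which edgeR draws towards a trend over all genes. Library totals ran from 59478910 to 66067379 counts, so counting error was small for these genes, whose lowest count was 758. The target of each siRNA was low in its own libraries. After NEK6 siRNA, 26.9% of the control FPKM of NEK6 was left in CFPAC, and 32.8% in KP3. After NEK7 siRNA, NEK7 kept 16.2% of its control FPKM in CFPAC, while KP3 kept 39.5%. Epithelial markers were present in both lines, with EPCAM, KRT7, KRT8, KRT18, KRT19 and CDH1 at a summed FPKM of 519.8 to 624 in CFPAC and 1222 to 1349 in KP3. KRT19 had the highest mean of them, 375 FPKM in CFPAC and 696 in KP3, and KRT7 the lowest, 1.31 and 0.987. All 3 endothelial markers summed to at most 0.221 FPKM. Of 5 leukocyte markers, the defining PTPRC and CD3E were at or near 0, the sum was 5.70 to 6.73 in CFPAC and 1.003 to 1.19 in KP3, and CD14 made up most of the former with a mean of 5.89. Of 5 fibroblast markers, LUM and DCN were high in CFPAC, with mean FPKM of 126 and 8.27 against 0.656 and 0.168 in KP3, whereas COL1A1, COL1A2 and PDGFRB were at 2.67, 1.20 and 0.265 against 2.38, 1.01 and 0.159. The part of these line differences in the results below was not tested.

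The mRNAs of the nuclear steps were higher in CFPAC than in KP3. As these are bulk libraries, fewer cells with an mRNA and less of it per cell cannot be told apart. XPO5 (ENSG00000124571, chr6:43522334-43576038, minus strand, as the table gives it, overlapping its GRCh38 gene) carries pre-miRNA hairpins out of the nucleus and had 7.05, 8.63 and 8.79 FPKM in CFPAC with control, NEK6 and NEK7 siRNA. In KP3 it had 5.02, 4.85 and 4.56 FPKM in the same order. Every CFPAC library lay above every KP3 library, and the fitted level was 1.74-fold higher in CFPAC (log2 fold change 0.80, SE 0.12, edgeR adjusted p = 0.00486, by Benjamini-Hochberg over all genes tested). DROSHA (ENSG00000113360, chr5:31400497-31532196, minus strand), the nuclease, had 6.82, 7.07 and 7.09 FPKM in CFPAC and 4.59, 4.44 and 4.93 in KP3. Its groups were also apart, and it varied little with siRNA, with an SD over the 3 conditions of 0.154 in CFPAC and 0.253 in KP3. The fitted level was 1.55-fold higher in CFPAC (log2 fold change 0.63, SE 0.10, edgeR adjusted p = 0.00488). DGCR8 (ENSG00000128191, chr22:20080232-20111877, plus strand), its RNA-binding partner, had 2.98, 3.25 and 2.87 FPKM in CFPAC and 2.20, 2.08 and 1.85 in KP3. It too was apart between the lines and 1.53-fold higher in CFPAC (log2 fold change 0.61, SE 0.13, edgeR adjusted p = 0.012). Both Microprocessor partners thus differed by a like fitted factor. The FPKM ratio of DROSHA to DGCR8 was 2.29, 2.17 and 2.48 in CFPAC (mean 2.31) and 2.08, 2.13 and 2.67 in KP3 (mean 2.29). In the control libraries alone the log2 FPKM ratio of CFPAC to KP3 was 0.57 for DROSHA and 0.43 for DGCR8. DROSHA and XPO5 kept their calls when any 1 of the 6 libraries was left out, with adjusted p-values of up to 0.0288 and 0.0286. DGCR8 lost its call without the CFPAC NEK6 siRNA or the CFPAC NEK7 siRNA library, which cannot be read as particular to CFPAC. A left-out library leaves its partner in the other line unpaired, so dropping either partner gives nearly the same line estimate. For DGCR8 the log2 fold change was 0.585 with either NEK7 siRNA library dropped. For NEK6 siRNA it was 0.573 (CFPAC dropped) and 0.582 (KP3 dropped). Here and for the genes below, the 6 fits thus amount to 3 checks of the line difference.

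**Figure D1:**
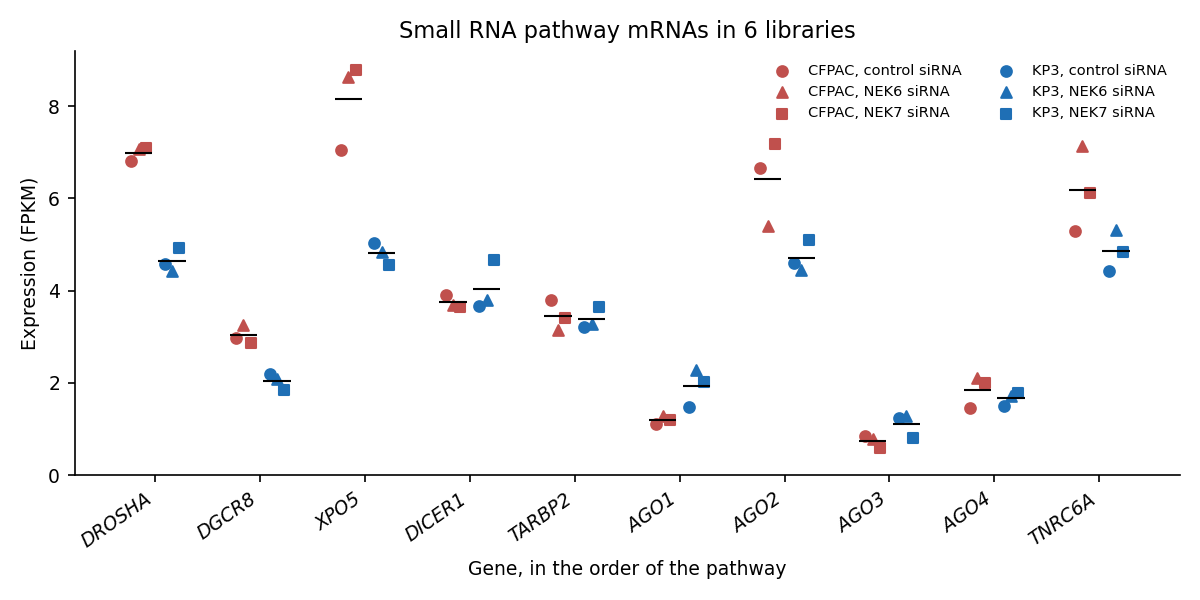
Expression (FPKM, y axis) of the 10 genes (x axis, in pathway order) in the 6 libraries, red for CFPAC and blue for KP3, with circles for control, triangles for NEK6 and squares for NEK7 siRNA, and a black line at the mean of the 3 libraries of a line. The CFPAC points lie above all KP3 points for DROSHA, DGCR8, XPO5 and AGO2 and below them for AGO1.

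The DGCR8 mRNA is itself a Microprocessor substrate, which is why its embedded miRNAs are shown. It carries hairpins of MIR3618 and MIR1306, and cutting them lowers DGCR8 mRNA, a known feedback within the complex. The mature miRNAs, from RefSeq (GRCh38.p14), lie on the plus strand of chromosome 22. That of MIR3618, at chr22:20085797-20085818, falls in an annotated DGCR8 UTR exon. Those of MIR1306, at chr22:20086072-20086093 and chr22:20086112-20086129, fall in DGCR8 coding sequence. Capitals mark the seed, bases 2 to 8, and the 3 seeds differ from each other.
hsa-miR-3618: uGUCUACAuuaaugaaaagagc
hsa-miR-1306-5p: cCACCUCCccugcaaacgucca
hsa-miR-1306-3p: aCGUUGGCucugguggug
The records of MIR3618 and MIR1306 held at most 1 count in any library, while DGCR8 had 1065 to 1801. Libraries were made with oligo(dT) beads, so mature miRNAs were not measured, and reads in the hairpins cannot be told apart from DGCR8 mRNA.

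The start regions of the 3 nuclear genes that differed between the lines are shown so that they can be compared. RefSeq windows of 250 bases before to 50 after the annotated start matched 9 of the 10 genes, all but AGO2, with 15 windows in all. Printed are the parts of the 250 upstream bases that no GENCODE v29 exon covers, on the strand of the gene (GRCh38.p14). Capitals mark 4 promoter motifs searched on either strand. They are the CCAAT box, spelled as its name, and the GC box of Sp proteins, GGGCGG. The others are the core of motifs bound by ETS factors, CCGGAA, and the TATA box of some strong promoters, searched as TATAAA. Those of DROSHA (chr5:31532197-31532265) and XPO5 (chr6:43576076-43576149) are short because annotated exons cover the rest, on the side of the gene and on that of C5orf22 and POLH, which start close by on the other strand. That of DGCR8 is chr22:20079991-20080231.
DROSHA: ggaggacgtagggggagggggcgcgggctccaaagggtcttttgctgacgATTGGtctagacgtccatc
DGCR8: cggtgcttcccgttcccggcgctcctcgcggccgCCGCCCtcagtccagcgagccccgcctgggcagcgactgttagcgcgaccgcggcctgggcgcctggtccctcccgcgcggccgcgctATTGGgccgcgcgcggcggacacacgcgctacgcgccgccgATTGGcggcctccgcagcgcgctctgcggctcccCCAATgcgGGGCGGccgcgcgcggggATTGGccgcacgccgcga
XPO5: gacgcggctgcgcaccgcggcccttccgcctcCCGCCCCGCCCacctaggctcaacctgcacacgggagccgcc
The DGCR8 stretch has 79.7% G or C, 47 CpG sites and 4 matches to CCAAT, that of XPO5 78.4% G or C and 2 matches to GGGCGG, which overlap, and that of DROSHA 62.3% G or C and 1 match to CCAAT. The whole 300-base windows have 80.3% G or C for DGCR8, 71.7% for XPO5 and 63.0% for DROSHA, against a median of 58.7% over all RefSeq windows. CCAAT occurs in 34.6% and GGGCGG in 45.0% of the 35116 RefSeq windows, CCGGAA in 17.2% and TATAAA in 11.5%, against 8, 11, 4 and 0 of the 15 windows here. These 15 are not independent, since DICER1 and TARBP2 have several each and some of those of DICER1 overlap. Whole windows hold more matches than some of the printed stretches. That of DROSHA has 3 to CCAAT, 2 to GGGCGG and 1 to CCGGAA. That of DGCR8 has 4 to CCAAT and 3 to GGGCGG, and that of XPO5 2 to GGGCGG. A match is a description of the letters and not a site, and no match says only that these letters are not in the stretch searched.

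The neighbours that start beside XPO5 and DROSHA did not pass the test between the lines. POLH, a translesion DNA polymerase, had 1.47 to 1.56 FPKM in CFPAC and 1.12 to 1.36 in KP3 (log2 fold change 0.36, SE 0.15, edgeR adjusted p = 0.0895). C5orf22 had 5.87 to 7.01 FPKM in CFPAC and 5.997 to 8.34 in KP3 (log2 fold change -0.07, SE 0.13, edgeR adjusted p = 0.681). At its other end XPO5 overlaps the RNA polymerase subunit gene POLR1C on the opposite strand by 40058 bases, and whether reads were counted by strand is not stated in the labels. POLR1C had a mean of 1569 counts against 4098 for XPO5, and its log2 fold change of 0.38 (SE 0.15) did not pass (edgeR adjusted p = 0.0791). The part of these reads in the XPO5 value was not tested. DGCR8 overlaps TRMT2A, a tRNA methyltransferase gene on the other strand, by 3 bases at its end. TRMT2A had 5.20 to 6.74 FPKM in CFPAC and 7.88 to 8.29 in KP3, and was lower in CFPAC where DGCR8 was higher (log2 fold change -0.43, SE 0.13, edgeR adjusted p = 0.0399).

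The genes of the dicing step did not pass the test between the lines. DICER1 (ENSG00000100697, chr14:95086228-95157529, minus strand), which cuts hairpins to duplexes, had 3.91, 3.69 and 3.64 FPKM in CFPAC with control, NEK6 and NEK7 siRNA and 3.66, 3.79 and 4.66 in KP3. The ranges overlap, and the highest value was that of the KP3 NEK7 siRNA library. The log2 fold change of CFPAC over KP3 was -0.05 (SE 0.13, edgeR adjusted p = 0.739). TARBP2 (ENSG00000139546, chr12:53500921-53506431, plus strand), the double-stranded RNA-binding partner of DICER1, had 3.80, 3.14 and 3.40 FPKM in CFPAC and 3.22, 3.28 and 3.65 in KP3. These ranges overlap as well (log2 fold change 0.07, SE 0.15, edgeR adjusted p = 0.714). PRKRA (PACT), the other such partner, averaged 7.77 FPKM in CFPAC and 7.87 in KP3 (log2 fold change 0.04, SE 0.12, edgeR adjusted p = 0.815). XPO5 against DICER1 thus stood differently in the lines, with FPKM ratios of 1.81, 2.34 and 2.41 in CFPAC and 1.37, 1.28 and 0.978 in KP3.

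AGO4, AGO1 and AGO3 lie in this order on the plus strand of chromosome 1 and are described together for that reason. The records span 35808016 to 35857890 for AGO4 (ENSG00000134698), 35869808 to 35930532 for AGO1 (ENSG00000092847) and 35930718 to 36072500 for AGO3 (ENSG00000126070), with 185 bases between AGO1 and AGO3. All 3 encode Argonautes that bind small RNAs. The exon-free upstream stretches are chr1:35807766-35808015 for AGO4, chr1:35882959-35883208 for AGO1 and chr1:35930855-35931077 for AGO3, from RefSeq as above. The stretches of AGO1 and AGO3 lie inside the records of these genes, which begin further upstream, and capitals mark the same motifs as above.
AGO4: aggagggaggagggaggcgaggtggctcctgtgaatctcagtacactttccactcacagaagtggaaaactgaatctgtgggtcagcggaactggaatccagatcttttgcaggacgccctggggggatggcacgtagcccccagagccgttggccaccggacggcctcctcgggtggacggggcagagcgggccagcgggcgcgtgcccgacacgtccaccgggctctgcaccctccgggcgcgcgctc
AGO1: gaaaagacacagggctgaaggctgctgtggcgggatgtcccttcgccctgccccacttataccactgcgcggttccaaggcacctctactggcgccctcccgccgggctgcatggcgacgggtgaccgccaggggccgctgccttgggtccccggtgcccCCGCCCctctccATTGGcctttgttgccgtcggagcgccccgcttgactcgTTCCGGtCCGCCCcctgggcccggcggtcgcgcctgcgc
AGO3: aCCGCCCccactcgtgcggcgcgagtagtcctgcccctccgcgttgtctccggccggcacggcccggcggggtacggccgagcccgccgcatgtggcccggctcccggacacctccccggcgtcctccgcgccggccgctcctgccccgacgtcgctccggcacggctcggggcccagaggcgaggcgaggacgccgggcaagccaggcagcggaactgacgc
The AGO4 stretch holds none of the 4 motifs and 20 CpG sites, that of AGO1 holds 2 matches to GGGCGG and 1 each to CCAAT and CCGGAA, and that of AGO3 1 match to GGGCGG and 36 CpG sites.

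These neighbours did not share 1 pattern between the lines. AGO1 had 1.11, 1.28 and 1.18 FPKM in CFPAC with control, NEK6 and NEK7 siRNA and 1.48, 2.28 and 2.02 in KP3. All CFPAC libraries lay below all KP3 libraries, and the fitted level was 1.54-fold lower in CFPAC (log2 fold change -0.63, SE 0.14, edgeR adjusted p = 0.0168). AGO3 had 0.837, 0.791 and 0.587 FPKM in CFPAC and 1.24, 1.29 and 0.809 in KP3. Within each siRNA condition KP3 was higher, but the KP3 NEK7 siRNA library lay within the CFPAC range. The fitted level was 1.44-fold lower in CFPAC (log2 fold change -0.53, SE 0.12, edgeR adjusted p = 0.0185). As AGO3 passed the filter on low values only through KP3, that call is a description, and with no such filter its adjusted p was 0.0298. AGO4 had 1.46, 2.10 and 2.00 FPKM in CFPAC and 1.49, 1.71 and 1.79 in KP3. Its ranges overlap, and it did not pass (log2 fold change 0.19, SE 0.15, edgeR adjusted p = 0.315). The AGO1 call was lost without any 1 of the 4 NEK6 or NEK7 siRNA libraries, with adjusted p-values of up to 0.0822. The AGO3 call was lost without any 1 of the 4 control or NEK6 siRNA libraries, with adjusted p-values of up to 0.078. AGO3 also missed the threshold with limma on log2(FPKM + 1) (adjusted p = 0.109) and without siRNA as a block (edgeR adjusted p = 0.088).

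AGO2 (ENSG00000123908, chromosome 8, 140520156 to 140635633, minus strand) was the most abundant Argonaute mRNA in every library. It had 6.66, 5.40 and 7.18 FPKM in CFPAC and 4.60, 4.44 and 5.11 in KP3, with no overlap between the lines. The fitted level was 1.40-fold higher in CFPAC (log2 fold change 0.48, SE 0.10, edgeR adjusted p = 0.0128). The call was lost without any 1 of the 4 control or NEK7 siRNA libraries, with adjusted p-values of up to 0.0687. As a share of the summed AGO1 to AGO4 FPKM, AGO2 made up 66.1%, 56.4% and 65.6% in CFPAC, and 52.3%, 45.7% and 52.5% for KP3. It was higher in CFPAC within each siRNA condition and in all 3 CFPAC libraries against all 3 of KP3. The mean difference was 12.5 percentage points (exact two-sided permutation test, p = 0.1, the smallest that 3 libraries against 3 can give). The permutations here ran over all 6 libraries and did not keep the siRNA pairs, so they treat the 3 siRNA conditions of a line as alike. AGO1 averaged 11.7% (SD 1.43, n = 3 siRNA conditions) in CFPAC and 20.3% (SD 3.36) in KP3, AGO3 7.31% (SD 1.69) and 11.9% (SD 3.11), and AGO4 18.2% (SD 3.70) and 17.6% (SD 0.736). The exact permutation p was 0.1 for AGO1 and AGO3 and 0.8 for AGO4, 4 shares that are not independent of each other. The summed level itself was 10.2 FPKM (SD 0.70) in CFPAC and 9.42 (SD 0.528) in KP3 (exact permutation p = 0.3).

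**Figure D2:**
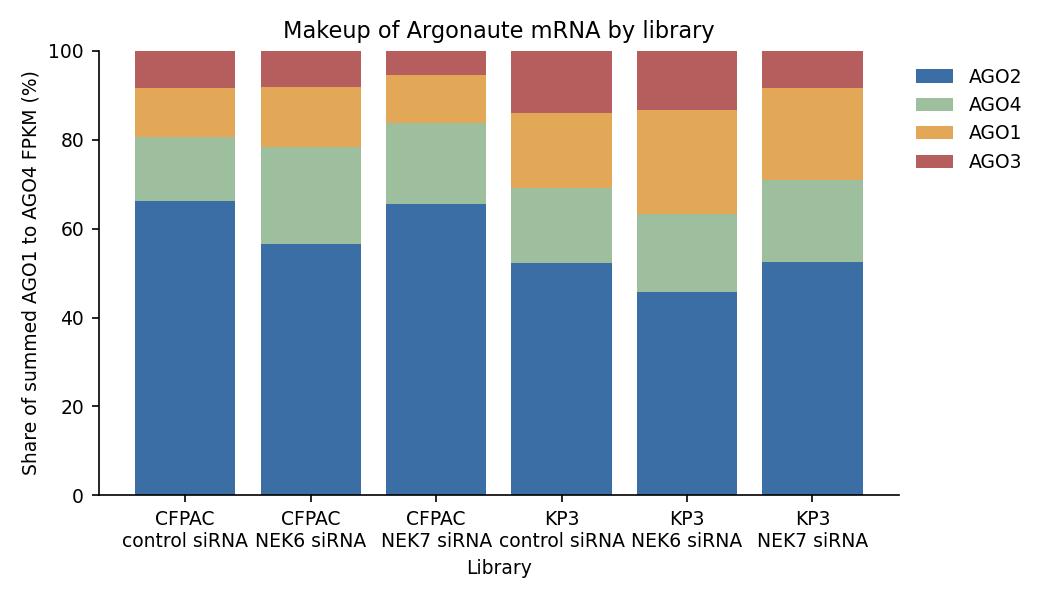
Share of each Argonaute mRNA in the summed AGO1 to AGO4 FPKM (y axis, percent) in each of the 6 libraries (x axis), with AGO2 at the bottom in blue. AGO2 takes 56.4% to 66.1% in CFPAC and 45.7% to 52.5% in KP3, and AGO1 and AGO3 take more in KP3.

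TNRC6A (ENSG00000090905, chr16:24610209-24826218, plus strand), the scaffold that links Argonaute to deadenylases, had 5.30, 7.14 and 6.12 FPKM in CFPAC and 4.44, 5.31 and 4.84 in KP3. The lowest CFPAC and the highest KP3 value were nearly equal, and within each siRNA condition CFPAC was higher. The fitted level was 1.31-fold higher in CFPAC (log2 fold change 0.39, SE 0.09, edgeR adjusted p = 0.0206). This call was the least firm of those made, since it was lost when any 1 of the 6 libraries was left out (adjusted p of 0.0641 to 0.0832), without a filter on low values (0.0603) and without siRNA as a block (0.056). Of its paralogs, TNRC6B averaged 1.91 FPKM in CFPAC and 2.01 in KP3 (log2 fold change -0.00, edgeR adjusted p = 0.986). TNRC6C stood at 0.0848 and 0.439 and was below the level for testing. TNRC6A made up 72.4%, 78.1% and 75.8% of the summed FPKM of the 3 paralogs in CFPAC and 70.0%, 63.6% and 66.8% in KP3.

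Of the 10 genes, 5 were called higher and 2 lower in CFPAC, and 3 were not called. Without AGO3, tested only through KP3, 5 of 9 were higher and 1 lower. Over all genes tested the lines differed widely, with 56.4% called, 29.3% higher and 27.1% lower in CFPAC. The 7 of 10 called here are thus near the background, and the median absolute log2 fold change of the 10 genes, 0.51, was below that of all tested genes, 0.74. The count fell to between 3 and 4 when 1 library was left out, which leaves 1 residual degree of freedom in place of 2. In the same fits the calls over all 14582 genes tested fell from 8223 to between 6422 and 6529. By range, 4 of the 10 genes had all CFPAC FPKM values above all those of KP3, against 31.2% of all tested genes, 1 had them all below, against 33% of all tested genes, and 5 overlapped. The FPKM ratio of the lines had a median over all tested genes of -0.06 on the log2 scale.

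**Figure D3:**
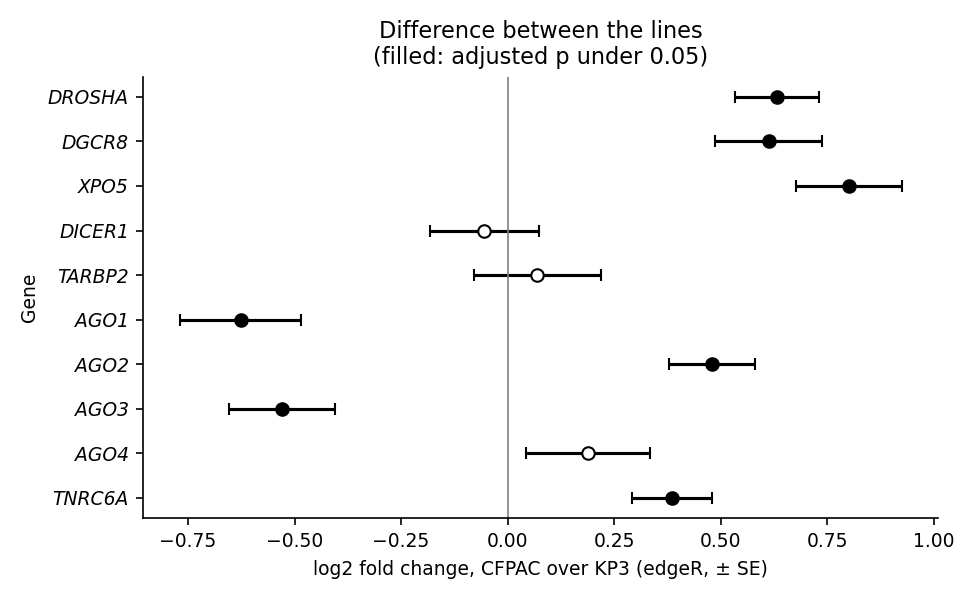
Fitted log2 fold change of CFPAC over KP3 (x axis, edgeR, bars are ± SE) for the 10 genes (y axis), filled where the adjusted p was under 0.05. XPO5, DROSHA, DGCR8, AGO2 and TNRC6A lie to the right of 0 and AGO1 and AGO3 to the left.

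Levels of the pathway were moderate and uneven. Over the 6 libraries the 10 genes averaged from 0.925 FPKM for AGO3 to 6.48 for XPO5, percentiles 13.65 and 63.9 of tested genes. In CFPAC the order by mean FPKM was XPO5, DROSHA, AGO2, TNRC6A, DICER1, TARBP2, DGCR8, AGO4, AGO1 and AGO3. There each of the first 3 overlapped the next in range, as did DICER1 with TARBP2 and TARBP2 with DGCR8, while TNRC6A was clear of DICER1 and DGCR8, AGO4, AGO1 and AGO3 were clear of one another. In KP3 the order was TNRC6A, XPO5, AGO2, DROSHA, DICER1, TARBP2, DGCR8, AGO1, AGO4 and AGO3. There each of the first 4 overlapped the next, as did DGCR8 with AGO1 and AGO1 with AGO4.

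With NEK6 siRNA, TNRC6A, AGO1 and AGO4 had the largest fitted increases of the 10 genes, none of them past the threshold. In CFPAC, TNRC6A had 4797 counts in the control library and 7005 under the siRNA, where KP3 had 4418 and 4952, at FPKM ratios of 1.35 and 1.20 (log2 fold change over both lines 0.35, SE 0.11, edgeR adjusted p = 0.656). AGO1 had 1077 and 1346 counts in CFPAC, where KP3 had 1574 and 2274, at ratios of 1.15 and 1.54 (log2 fold change 0.41, SE 0.17, edgeR adjusted p = 0.683). AGO4 had ratios of 1.43 in CFPAC and 1.15 in KP3 (log2 fold change 0.36, SE 0.18, edgeR adjusted p = 0.711). All 3 were above control in both lines. AGO2 had ratios of 0.811 and 0.964 (log2 fold change -0.17, SE 0.12, edgeR adjusted p = 0.769). The other 6 genes had fitted log2 fold changes from -0.12 for TARBP2 to 0.12 for XPO5. The RNAs RN7SL1, RN7SL2 and RN7SK, which have no poly(A) tail, also moved in these libraries, with 0.00112% of counts in the CFPAC control against 0.00866%, and 0.00188% in the KP3 control against 0.0158%, and their part in these values was not tested.

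With NEK7 siRNA, AGO3 was the gene with the largest fitted change. It had 1235 counts with control and 939 with NEK7 siRNA in CFPAC, where KP3 had 2008 and 1347, which left 70.2% (95% interval from counting error 64.5 to 76.4) and 65.4% (61.0 to 70.1) of its FPKM. The fitted log2 fold change was -0.59 (SE 0.15, edgeR adjusted p = 0.492), while DESeq2 gave an adjusted p of 0.0382. Its neighbours AGO1 and AGO4 were not lower in the same libraries. AGO1 had ratios of 1.06 in CFPAC and 1.37 in KP3 (log2 fold change 0.24, SE 0.17, edgeR adjusted p = 0.684), and AGO4 had 1.37 and 1.20 (log2 fold change 0.32, SE 0.18, edgeR adjusted p = 0.607). The ratio of AGO3 to AGO1 FPKM was 0.752, 0.617 and 0.496 with control, NEK6 and NEK7 siRNA in CFPAC and 0.838, 0.565 and 0.40 in KP3. DICER1 had ratios of 0.933 in CFPAC and 1.27 in KP3, and XPO5 1.247 and 0.908. AGO2, which cuts the targets of siRNAs, had 1.08 and 1.11 (log2 fold change 0.10, SE 0.12, edgeR adjusted p = 0.812). The RN7S RNAs were at 0.00221% of counts in CFPAC and 0.00323% in KP3 with NEK7 siRNA, also above the control libraries, and their part was not tested. Both siRNA comparisons share the control library of a line, so their values are given side by side and not compared.

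**Figure D4:**
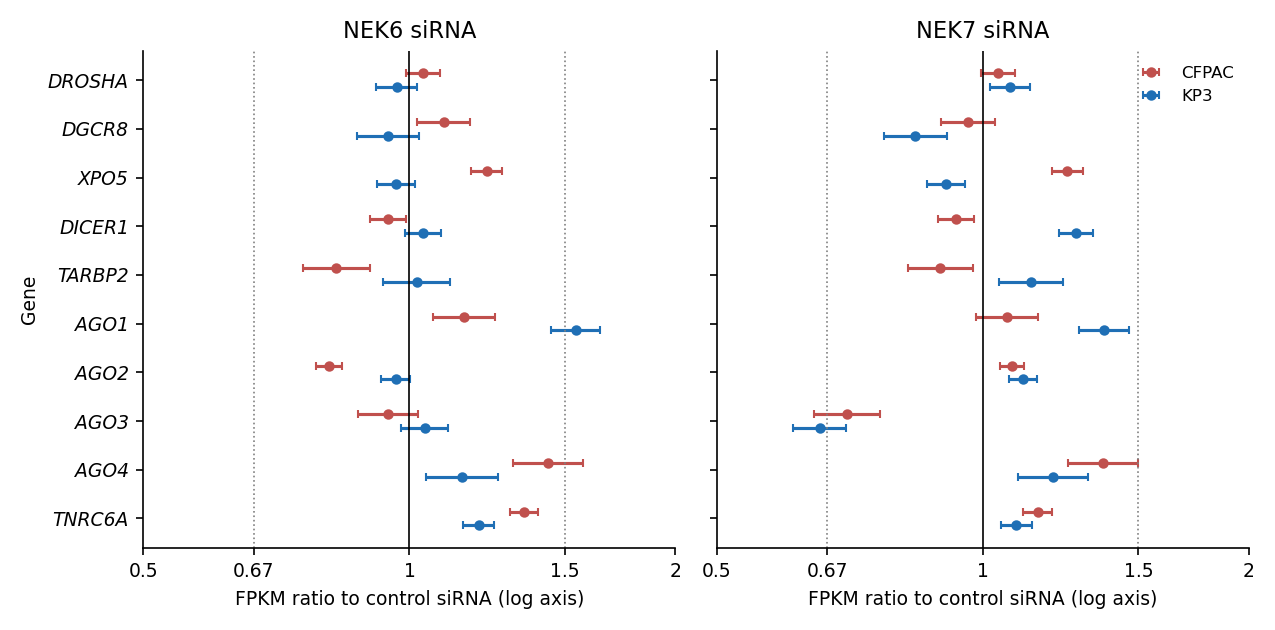
FPKM with NEK6 siRNA (left) or NEK7 siRNA (right) over control siRNA (x axis, log scale) for the 10 genes (y axis), red for CFPAC and blue for KP3, with 95% intervals from counting error and dotted lines at 1.5-fold. AGO3 lies left of 1 in both lines with NEK7 siRNA, at 0.702 and 0.654, and TNRC6A right of 1 in both lines with both siRNAs.

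Over both lines edgeR called 0 of the 10 genes with either siRNA, and 0% of all tested genes with NEK6 siRNA and 0% with NEK7 siRNA. The siRNA targets were not called either, NEK6 with a log2 fold change of -1.75 (edgeR adjusted p = 0.181) and NEK7 with -1.93 (0.492), so 0 calls do not show that levels did not differ. Unadjusted p-values under 0.05 were held by 1073 genes with NEK6 siRNA, TNRC6A among them, and by 1372 with NEK7 siRNA, AGO3 among them. limma called 0 genes in each, and DESeq2 called 288 and 371, of which 0 and 1 were among the 10. Within a line, where 1 library stands against 1 and no test can be made, none of the 10 genes moved by at least 1.5-fold on the log2(FPKM + 1) scale, which understates changes of low genes such as AGO1 and AGO3. Of all tested genes in CFPAC, 3.76% were that much higher and 4.72% that much lower with NEK6 siRNA, and 4.61% and 4.82% with NEK7 siRNA. For KP3 these shares were 4.87% higher and 4.42% lower, and 4.8% and 4.9%. On the FPKM ratio itself AGO1 with NEK6 siRNA in KP3 (1.54) passed that fold, and AGO3 with NEK7 siRNA in KP3 (0.654) did so downward. The share of all tested genes past that fold on the FPKM ratio is not given here, and the shares above are on the other scale.

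Other genes of small RNA biology were read from 7 lists, of which 95 genes were tested and 58 were called between the lines, 37 higher and 21 lower in CFPAC. That share is close to the 56.4% of all tested genes, of which 29.3% were higher and 27.1% lower in CFPAC. SMAD2, DCP1B, TUT4 and TDRKH reached 1 FPKM in KP3 alone, and TLR3 and ZBP1 in CFPAC alone. These 6 were tested only through the line where they were high, so their calls and their part in the counts are descriptions. Of 18 partners of the Microprocessor and of DICER1, 6 were higher and 3 lower, with a median log2 fold change of 0.07 against -0.00 over all tested genes. SRRT (ARS2), which links the cap-binding complex to primary miRNAs, was higher by 1.08 (SE 0.10, edgeR adjusted p = 0.00101), and the cap-binding subunit NCBP1 by 0.78 (SE 0.10, 0.00276). KHSRP, a protein that binds miRNA precursors, was higher by 0.85 (SE 0.10, 0.00187), and so were SRSF3, SAFB and METTL3. ILF2, HNRNPA1 and SMAD2 were lower, SMAD2 by -1.06 (SE 0.16, 0.00412). Of 13 chaperones and other helpers of Argonaute loading, 5 were higher and 1 lower (median 0.11). These 6 calls were 4 to 5 when any 1 library was left out. HSPA8, the constitutive HSP70, was higher by 0.93 (SE 0.09, 0.00107), its co-chaperone DNAJA1 by 1.69 (SE 0.10, 0.000328) and HSP90AA1 by 0.88 (SE 0.15, 0.00627), as were AHSA1 and CDC37, while FKBP4 was lower by -0.42 (SE 0.09, 0.0141). These values are log2 fold changes with edgeR adjusted p-values.

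Of 30 tested effectors downstream of Argonaute, 10 were higher and 6 lower in CFPAC (median 0.11), near the 29.3% and 27.1% of all tested genes, a count that was 7 to 9 in all when any 1 library was left out and 8 with no filter on low values. The 5′ to 3′ exonuclease XRN1 was higher by 1.95 on the log2 scale (SE 0.13, edgeR adjusted p = 0.000415) and the LIM protein AJUBA by 1.95 (SE 0.20, 0.00143). Of the CNOT genes, the deadenylases CNOT6 and CNOT7 and the ubiquitin ligase CNOT4 were higher, and the CCR4-NOT scaffold CNOT1 was lower, by -0.33 (SE 0.09, 0.0284). The decapping scaffold EDC4 was lower by -0.99 (SE 0.13, 0.00252) and the deadenylase subunit PAN2 by -0.86 (SE 0.11, 0.0023). DCP1B, EIF4ENIF1 and LIMD1 were lower too, and PABPC1, DDX6, EDC3, LSM14A and SND1 higher. Of 10 regulators of Argonaute, beside the same shares of all genes, 1 was higher, the kinase CSNK1A1 by 0.77 (SE 0.11, 0.0038), and 5 were lower, P4HB by -1.51 (SE 0.11, 0.000506), P4HA1, ZSWIM8, CUL3 and ELOB. These 6 calls were 3 to 5 when any 1 library was left out. In such fits the calls over all genes tested went from 8223 to between 6422 and 6529. P4HA1 and P4HB are the subunits of the collagen prolyl 4-hydroxylase, which also modifies AGO2.

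Of 12 tested genes that tail or trim small RNAs, 5 were higher and 4 lower in CFPAC (median 0.24), beside 29.3% and 27.1% of all tested genes. Without TUT4 and TDRKH they were 5 and 2 of 10 (median 0.56). PNPT1, the mitochondrial polynucleotide phosphorylase, averaged 34.2 FPKM in CFPAC and 7.05 in KP3 (log2 fold change 2.32, SE 0.10, edgeR adjusted p = 0.000162). ERI1, an exonuclease that trims siRNA and histone mRNA ends, was higher by 1.33 (SE 0.15, 0.00197), and XRN2 by 1.04 (SE 0.10, 0.00107). Of the related uridylyl transferases TUT4 and TUT7, TUT4 averaged 0.683 FPKM in CFPAC and 2.21 in KP3 (log2 fold change -1.64, SE 0.12, edgeR adjusted p = 0.000532), and TUT7 8.38 and 4.86 (0.87, SE 0.16, 0.00881). TENT2 was higher, and PARN, TUT1 and TDRKH were lower. LIN28A, the let-7 binding protein, was listed at 0 in CFPAC and averaged 0.0257 FPKM in KP3.

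The double-stranded RNA sensors, which can respond to long or unmodified duplexes, had the widest line difference of the 7 lists. Of 11 tested, 10 were higher in CFPAC, beside 29.3% of all tested genes, with a median log2 fold change of 2.94 over the 11. That median is the value of TLR3, and without TLR3 and ZBP1 it was 2.33 over 9 genes, of which 8 were higher, an alternative chosen after seeing the data. With all 11, the number of calls was the same when any 1 library was left out. DDX58 (RIG-I) averaged 52.6 FPKM (SD 3.30) in CFPAC and 5.31 (SD 0.32) in KP3 (log2 fold change 3.35, SE 0.11, edgeR adjusted p = 0.00011). Its adaptor MAVS had 14.3 and 3.40 FPKM (2.12, SE 0.10, 0.000221), the kinase PKR (EIF2AK2) 34.2 and 7.11 (2.33, SE 0.13, 0.000302), and the endosomal receptor TLR3 3.77 and 0.527 (2.94, SE 0.23, 0.000636). OAS2, which makes 2′-5′ oligoadenylate, had 145 and 0.989 FPKM (7.31, SE 0.26, 0.000132). IFIH1, DHX58, OAS1, OAS3 and ZBP1 were the others that were higher, ZBP1 with counts of 381 to 495 in CFPAC and of 0, 19 and 0 in KP3.

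**Figure D5:**
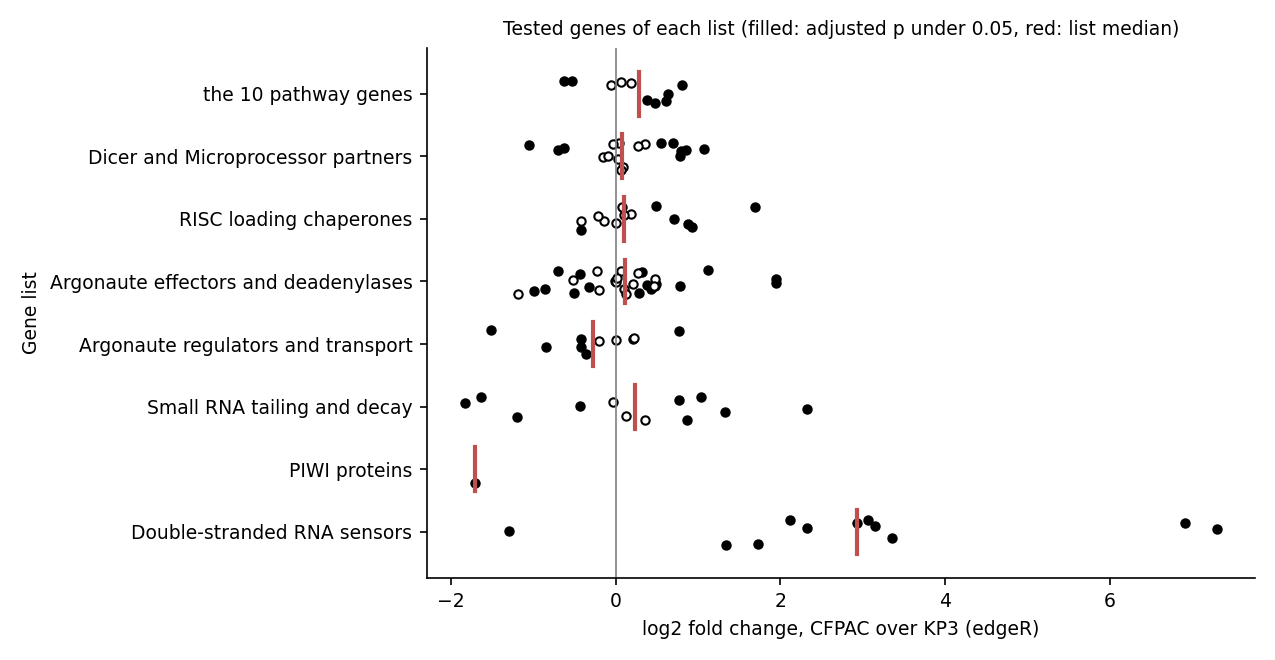
Fitted log2 fold change of CFPAC over KP3 (x axis, edgeR) for the tested genes of the 10-gene set and of 7 further lists (y axis), filled where the adjusted p was under 0.05, with a red bar at each list median. The points of the double-stranded RNA sensors lie to the right, with a median of 2.94 (2.33 without TLR3 and ZBP1), and those of the 10 genes lie between -0.63 and 0.80.

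With the siRNAs, 0 of the 95 tested genes of these lists were called by edgeR or limma in either comparison. Unadjusted edgeR p-values under 0.05 were held by 4 with NEK6 and 8 with NEK7 siRNA, beside 1073 and 1372 of all 14582 genes tested. DESeq2 called 3 with NEK6 siRNA, STIP1 (adjusted p = 0.00807), PPP6C (0.0202) and FKBP5 (0.0338), and 1 with NEK7 siRNA, CSNK1A1 (0.00679). Over all tested genes it called 288 with NEK6 and 371 with NEK7 siRNA. The genes named here moved furthest by the smaller of their differences in the lines on the log2(FPKM + 1) scale, which is not the order of the fitted values. The kinase CSNK1A1, which phosphorylates AGO2, had 9.59 FPKM with control and 13.7 with NEK7 siRNA in CFPAC and 5.24 and 9.45 in KP3 (log2 fold change 0.65, SE 0.14, edgeR adjusted p = 0.487). With NEK6 siRNA it had 11.6 and 6.76 FPKM. By that measure OAS2 and XRN2 came next with NEK7 siRNA, with fitted log2 fold changes of 0.73 and 0.33. ELOC, TUT1 and RAN, the GTPase that drives XPO5 export, had the furthest decreases by it, RAN with 73.7 to 45.9 FPKM in CFPAC and 68.8 to 57.8 in KP3 (-0.49, SE 0.19, edgeR adjusted p = 0.53). With NEK6 siRNA the chaperone organizer STIP1 went from 46.1 to 34.0 FPKM in CFPAC and from 61.1 to 33.4 in KP3 (-0.65, SE 0.14, edgeR adjusted p = 0.492). PPP6C, a phosphatase that acts on AGO2, went from 8.87 to 6.45 and from 9.77 to 6.49 (-0.52, SE 0.12, edgeR adjusted p = 0.543), and TSN from 11.4 to 5.09 and from 15.3 to 12.2. AJUBA and FKBP5 stood with CSNK1A1 among the increases with NEK6 siRNA, with fitted log2 fold changes of 0.43 and 0.39.

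The genes with the pattern most like that of AGO2 over the 6 libraries were IMP3, HS6ST1 and CHMP7. Their log2(FPKM + 1) values, centred on each gene's mean, differed from those of AGO2 by a root mean square of 0.049, 0.051 and 0.054, against a median of 0.407 over the 6340 genes with a mean of at least 5 FPKM. For DICER1 they were TSPO, SUB1 and RPL30, with 0.028, 0.037 and 0.05 against a median of 0.348. DICER1 varied little between libraries, so its closest genes are ones that also varied little.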

How the data were processed

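The authors deposited a count of reads for each gene record and library, whole numbers without normalization, and FPKM values of the same records, per the file headers, scaled to length and depth. cutadapt 1.9, HISAT2 2.0.4, StringTie 1.3.4d and edgeR are named in the submitters' processing notes, without role or order, and libraries were made with oligo(dT) beads, per the labels' protocols. No source used here names the genome build. All 10 records overlap their GENCODE v29 (GRCh38) gene on the same chromosome and strand. Promoter and miRNA sequences are from RefSeq (GRCh38.p14).

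The 14582 genes with 1 FPKM or more in any library were tested. The counts were fitted with edgeR 4.0.16 in R 4.3.3, with TMM normalization and quasi-likelihood tests, line and siRNA being factors. A gene has 2 residual degrees of freedom of its own, and its dispersion was moderated towards a trend over all genes, on which the p-values also rest. Benjamini-Hochberg adjustment covered all genes tested (threshold 0.05). The standard error is the log2 fold change divided by the root of F. limma 3.58.1 and DESeq2 1.42.0 were alternatives, and the scripts were tested on simulated data. Both lines received each siRNA, so line is the block of the siRNA comparisons and siRNA that of the line comparison. Within a line, log2(FPKM + 1) was compared without a test. FPKM ratios have 95% intervals from counting error alone. The exact permutation tests, which did not keep siRNA as a block, used scipy 1.17.1, with pandas 2.3.3, numpy 2.4.6 and matplotlib 3.10.9 on Python 3.11.15. The 10 genes, the lists and the tests were chosen with earlier results of these data known. The named genes were all 10, list members called between the lines, the 3 list genes most changed alike in both lines with each siRNA in each direction, and the 3 genes nearest in pattern to AGO2 and to DICER1. POLH, C5orf22, POLR1C and TRMT2A were added as neighbours after values were seen, as were the RN7S RNAs, the paralogs and the ratios between genes. Of the list and marker genes, 2 are not reported here.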

Additional observations from a re-analysis of the deposited data

Results flagged for a closer look

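With NEK7 siRNA, 3 of the 10 genes moved in opposite directions in the lines, each beyond counting error on the TMM scale. The share of all tested genes that did so is not given here, so 3 of 10 cannot be called many or few. DICER1 was at 0.9067 of control in CFPAC (95% interval 0.865 to 0.95) and at 1.255 in KP3 (1.201 to 1.31). XPO5 was at 1.211 (1.16 to 1.26) in CFPAC and at 0.8943 (0.851 to 0.94) in KP3. TARBP2 was at 0.8654 (0.795 to 0.942) in CFPAC and at 1.117 (1.03 to 1.21) in KP3. Each value is 1 library against 1, intervals cover counting error only, and the difference between the lines was not tested, since without replicates it is the residual of the model.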

How the results depend on the processing

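Between the lines, 7 of the 10 genes were called, 7 with DESeq2 and with its size factors, and 6 with limma (without AGO3) and with no filter on low values (without TNRC6A). With no replicate block the count was 5, losing AGO3 and TNRC6A. With testing limited to a mean of 5 FPKM or more it was 4 of 4, since fewer genes were tested, and with 1 library left out it was 3 to 4. With NEK7 siRNA 1 gene, AGO3, was called by DESeq2, and 0 by every other setting and with NEK6 siRNA under all of them. Over all genes the line calls went from 8223 to between 6422 and 6529 with a library left out, and to 4122 with that limit. Within a line, none of the 10 genes passed 1.5-fold on log2(FPKM + 1). Past a threshold of 0.32 on that scale, 2 were higher with NEK6 siRNA in CFPAC, where 11.0% of all tested genes were. In KP3 it was 1, beside 12.9% of all. With a pseudocount of 0.1 and with TMM-scaled CPM + 1, 1 gene passed 1.5-fold with NEK6 siRNA in KP3. With TMM-scaled CPM + 1, 1 also did so with NEK7 siRNA in KP3. The shares of all tested genes past 1.5-fold under these settings are not given here, so these counts cannot be called many or few. The AGO2 share differed by 10.3 to 15.7 points with 1 library left out and by 14.1 from TMM-scaled counts.

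The log2 fold changes that changed sign were all small and not called. Between the lines, the control libraries alone gave -0.026 for AGO4 and 0.094 for DICER1. With NEK6 siRNA, AGO3 was 0.0055 without the block and DROSHA -0.0093 without a filter, and with NEK7 siRNA TARBP2 was 0.0073 by limma. With 1 library left out, the line value ranged from -0.16 to 0.077 for DICER1 and from -0.043 to 0.14 for TARBP2. The NEK6 siRNA value ranged from -0.10 to 0.085 for AGO3, -0.16 to 0.14 for DICER1, -0.057 to 0.066 for DROSHA, -0.069 to 0.12 for DGCR8, -0.071 to 0.32 for XPO5 and -0.29 to 0.049 for TARBP2. The NEK7 siRNA value ranged from -0.11 to 0.29 for DICER1, -0.015 to 0.11 for DROSHA, -0.14 to 0.25 for XPO5 and -0.19 to 0.15 for TARBP2. The causes were not tested. With 1 library a condition, no variation between cultures was measured, and counting intervals cover depth alone.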

Other observations

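Of the germline branch of the Argonaute family, PIWIL1 had 225, 204 and 157 counts with control, NEK6 and NEK7 siRNA in CFPAC and 8, 31 and 4 in KP3, with a mean of 0.501 and 0.0358 FPKM. PIWIL2 averaged 0.0975 and 0.142, and PIWIL4 0.0206 and 0.0894, and all 3 were below the level for testing, while the piRNA factors DDX4 and MAEL were at or near 0. With no filter on low values 2 genes of that list were called between the lines in place of 1. PLD6, a mitochondrial protein that also takes part in making PIWI-bound RNAs, was the 1 tested gene and was lower in CFPAC, with 1.46 FPKM against 4.92 (log2 fold change -1.71, SE 0.19, edgeR adjusted p = 0.00163). TDRKH, a PIWI partner on mitochondria, was also lower, with 0.885 FPKM against 3.28 (-1.84, SE 0.15, edgeR adjusted p = 0.000775), but reached 1 FPKM in KP3 alone and was tested through that line.

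The 10 genes together took 0.049% to 0.0526% of the counts of the CFPAC libraries and 0.0408% to 0.0437% of those of KP3. The FPKM ratio of AGO2 to TNRC6A was 1.26, 0.756 and 1.17 with control, NEK6 and NEK7 siRNA in CFPAC and 1.04, 0.836 and 1.05 in KP3, lowest with NEK6 siRNA in both lines, which was seen after the values were examined and was not tested.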
